A study of Arabidopsis thaliana with 6 samples.

Results

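The genes described here are 79 nuclear genes of Arabidopsis thaliana whose transcripts were at least 2-fold higher when EIN5 and SKI2 were both mutated, in plants with RDR6 and again in plants without it. They were chosen on these same libraries. Reads per gene were divided by the library's total over nuclear genes without the 4 ribosomal RNA genes, 0.5 reads were added to each count first, and a gene was kept if its log2 ratio was 1 or more in both pairs of libraries and the higher library of each pair held at least 100 reads. Of 33602 genes in the table, 33323 were nuclear, 13599 of these were measured (100 reads) in both pairs, and 85 passed, which was 0.625% of those measured. The rule leaves out 9 named genes of heat, defence, anthocyanin and copper responses; 6 of them were among the 85 and are not described (HSP70-4, HSP101, HSP90.1, PR1, PR2 and the anthocyanin glycosyltransferase UF3GT), which gave the 79. With median-of-ratios size factors the rule took 48 genes, and with totals over all genes, organelles included, 125.

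The aerial parts of 18-day-old plants were sequenced after depletion of ribosomal RNA, with 1 library for each of 6 genotypes. The triple mutant carried rdr6-11, ein5-1 and ski2-3, and its reference was rdr6-11. The double mutant carried ein5-1 and ski2-3 and was set against wild type Col-0, as was each decay mutation alone (ein5-1 and ski2-3). No genotype had a replicate, so each ratio compares 2 libraries, no test between genotypes was possible, and the 95% intervals given (exact, from the binomial distribution of the 2 counts) cover counting error only. The number of plants in a library is not stated in the labels.

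EIN5, also called XRN4, is the cytoplasmic exonuclease that degrades uncapped messenger RNA from the 5' end. SKI2 is an RNA helicase of the SKI complex, through which the cytoplasmic exosome receives messenger RNA and degrades it from the 3' end. RDR6 copies aberrant transcripts into double-stranded RNA, from which Dicer enzymes cut small interfering RNAs that silence further copies, so that plants without decay can turn stable transcripts into silencing templates.

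The libraries held 15227573 nuclear reads outside ribosomal RNA in the triple mutant and 12911083 in rdr6-11, 16143418 in the double mutant, 11504047 in ein5-1, 10931900 in ski2-3 and 8844363 in Col-0. Ribosomal RNA took 19.2% of the nuclear reads of Col-0 and 0.335% to 2.71% of those of the mutants. In the triple mutant and rdr6-11, genes with 1 to 20 reads had even numbers of them in 81.5% and 81.9% of cases, while the range elsewhere was 38.4% to 41.5%, so counting intervals may be too narrow in that pair. Levels are given in RPM, the reads of a gene in every 1000000 nuclear reads outside ribosomal RNA. EIN5 had 51.5 RPM in the double mutant, 32.2 in ein5-1, 77.3 in ski2-3 and 67.7 in Col-0, and 27.7 in the triple mutant against 64.7 in rdr6-11. SKI2 had 27.1 RPM in the double mutant, 32.2 in ein5-1, 18.2 in ski2-3 and 31.5 in Col-0, and 18.0 in the triple mutant against 29.2 in rdr6-11, so that in the double mutant both transcripts were close to Col-0 (log2 ratios -0.39 and -0.22). RDR6 had 16.5 in the triple mutant and 13.6 in rdr6-11, and between 34.9 and 49.0 in the libraries with RDR6. Transcript levels do not show whether the alleles make protein. The 7 leaf markers summed to between 20618 and 42263 RPM over the libraries, the 4 seed markers to no more than 0.620 and the 4 flower markers to no more than 3.73. The 7 root markers summed to between 528 and 1015, and 5 of them had fewer than 100 reads in every library.

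Several members are neighbours in the genome, and the sequences before their starts are shown for 2 such pairs of genes. They are also shown for the members that hold the core of the heat shock element more than once. All are from the TAIR10.1 assembly by its own gene models, 250 bases up to the base before the gene's start, written 5' to 3' on the gene's strand; the deposited table holds no coordinates. RLP38 (chr3:8229620-8229869, minus strand) and RLP37 (chr3:8224872-8225121, minus strand) are receptor-like protein genes with 1 gene between them; RLP50 is described further on. Capitals mark the longest run that their upstream sequences have in common, 19 bases.
RLP38: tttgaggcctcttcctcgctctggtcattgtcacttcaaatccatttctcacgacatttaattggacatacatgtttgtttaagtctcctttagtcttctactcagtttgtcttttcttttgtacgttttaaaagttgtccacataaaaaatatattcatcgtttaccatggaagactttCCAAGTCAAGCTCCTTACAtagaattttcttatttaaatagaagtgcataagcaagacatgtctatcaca
RLP37: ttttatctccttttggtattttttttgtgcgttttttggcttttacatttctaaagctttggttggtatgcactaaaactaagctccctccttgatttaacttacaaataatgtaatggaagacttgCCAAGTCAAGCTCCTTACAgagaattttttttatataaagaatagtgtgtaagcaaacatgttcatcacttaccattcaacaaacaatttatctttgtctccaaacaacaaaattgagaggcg
The longest stretch that both also share with RLP50, on either strand, is CAAGTCAAGCT, which stands in 9 of 27443 such upstream sequences of protein-coding genes (0.0328%). Among them were 3 members, RLP37, RLP38 and RLP50, all of the receptor-like protein family. The 3 others that were measured were not raised to the same extent: the log2 ratios in the double mutant over Col-0 and in the triple mutant over rdr6-11 were 0.56 and 0.18 for SCL33, 0.11 and 0.33 for EDS1, and 0.02 and 0.11 for GSNAP. The stretch was looked for after the sequences had been seen, and its GTCAA is TTGAC, the W-box core named next, read on the other strand.

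CRK5 (chr4:12120221-12120470, minus strand) and CRK6 (chr4:12121119-12121368, plus strand) encode cysteine-rich receptor-like kinases and are read away from each other, with 1149 bases from start to start. Capitals mark TTGAC, the core of the W-box that WRKY transcription factors bind, on either strand.
CRK5: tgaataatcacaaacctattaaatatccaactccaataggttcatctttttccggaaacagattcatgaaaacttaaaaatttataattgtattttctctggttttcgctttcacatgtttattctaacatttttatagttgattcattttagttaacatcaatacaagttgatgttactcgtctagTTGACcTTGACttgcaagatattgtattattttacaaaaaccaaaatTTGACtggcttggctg
CRK6: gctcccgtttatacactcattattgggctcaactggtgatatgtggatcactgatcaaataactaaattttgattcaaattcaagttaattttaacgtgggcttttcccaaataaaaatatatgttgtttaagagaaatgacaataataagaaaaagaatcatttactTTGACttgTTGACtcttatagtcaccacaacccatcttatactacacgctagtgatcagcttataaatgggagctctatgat
CRK5 had 3 such cores and CRK6 had 2. At least 1 core stood upstream of 39 of 78 members (50%) and of 44.3% of measured genes, and 2 or more stood upstream of 17.9% of members and 13.8% of measured genes.

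The core of the heat shock element, GAANNTTC, which reads the same on both strands, stood upstream of 15 of 78 members (19.2%), against 9.26% of measured genes and 9.55% of all 27443. It occurred more than once upstream of 3 members (3.85%), against 0.427% of measured genes, and these were PNP-A (chr2:8091737-8091986, minus strand), RLP50 (chr4:8043553-8043802, plus strand) and LSU1 (chr3:18375941-18376190, minus strand), with the cores in capitals.
PNP-A: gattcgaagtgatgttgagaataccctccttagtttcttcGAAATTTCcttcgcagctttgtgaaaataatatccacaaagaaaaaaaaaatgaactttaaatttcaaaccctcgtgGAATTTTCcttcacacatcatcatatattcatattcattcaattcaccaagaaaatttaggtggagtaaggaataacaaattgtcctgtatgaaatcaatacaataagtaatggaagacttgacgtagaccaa
RLP50: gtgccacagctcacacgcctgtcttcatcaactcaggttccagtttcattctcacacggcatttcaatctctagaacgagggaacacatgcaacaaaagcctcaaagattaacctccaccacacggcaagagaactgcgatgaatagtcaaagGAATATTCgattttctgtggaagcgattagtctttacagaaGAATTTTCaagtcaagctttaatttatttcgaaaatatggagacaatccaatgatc
LSU1: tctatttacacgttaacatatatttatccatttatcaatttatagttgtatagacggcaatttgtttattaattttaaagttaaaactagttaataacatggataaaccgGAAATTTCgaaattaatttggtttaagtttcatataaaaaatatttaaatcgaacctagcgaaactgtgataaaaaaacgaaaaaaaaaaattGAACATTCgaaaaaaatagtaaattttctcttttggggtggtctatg
A match to a motif describes the letters and does not show that a factor binds there.

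Between the double mutant and Col-0, 1726 of 15072 measured genes (11.5%) were at least 2-fold higher and 5.21% at least 2-fold lower. Between the triple mutant and rdr6-11 193 of 14238 (1.36%) were higher and 0.246% lower. Over the 13599 genes measured in both pairs, 1144 passed in the first and 166 in the second, so the 85 in common were 7.43% of the first list and 51.2% of the second. The pairs share no library. Members had a median log2 ratio of 1.79 in the double mutant over Col-0 (1.00 to 5.08) and of 1.16 in the triple mutant over rdr6-11 (1.00 to 3.09), which the rule fixes at 1 or more; the medians of all 13599 were 0.17 and 0.09. Whether such a ratio reflects more cells of a type or more RNA per cell cannot be told apart in these bulk samples.

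**Figure D1:**
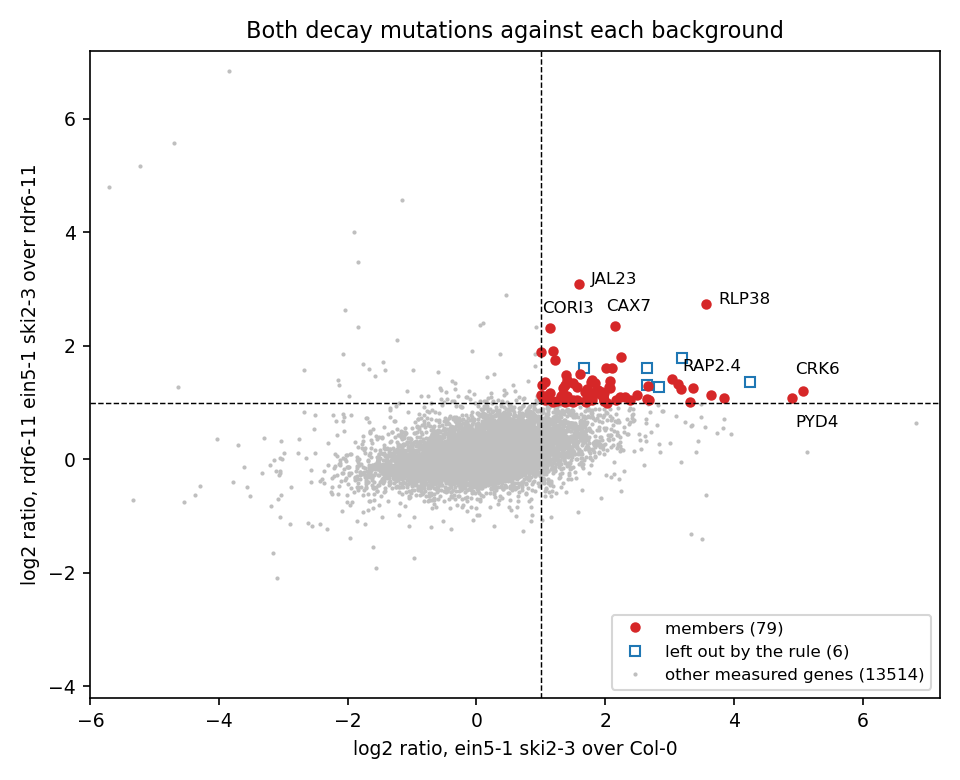
Each point is a gene with at least 100 reads in the higher library of both pairs, placed by its log2 ratio in the double mutant over Col-0 (horizontal) and in the triple mutant over rdr6-11 (vertical), with 1 library per genotype and dashed lines at 2-fold. The 79 members fill the upper right corner by the rule, with most of them close to the horizontal line: their median is 1.16 there. Squares are the 6 genes left out.

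The members together took 3529 RPM in the triple mutant and 1512 in rdr6-11. In the double mutant they took 7595 RPM, in ein5-1 3289, in ski2-3 3112 and in Col-0 2255. The members' median level was 7.19 RPKM (reads scaled by gene length and library size, the authors' values) in the double mutant and 1.79 in Col-0, and 3.85 in the triple mutant and 1.41 in rdr6-11. Over all genes measured in both pairs the medians were 5.83 in the double mutant and 4.59 in Col-0, and 5.02 in the triple mutant and 4.31 in rdr6-11, so that members were above the typical gene in the double mutant and below it in the other 3. The rule fixes that the genes are higher in both backgrounds, not that they are so by the same amount. The ratio was smaller in the background without RDR6 for 66 of 79 members and at least 2-fold smaller for 18 (22.8%), where it was at least 2-fold smaller for 572 (50%) of the 1144 genes that were 2-fold higher in the double mutant. The share of the log2 difference kept there had a median of 70.3%, from 22.2% to 202%. Among the 1144 the median share was 25.7%. The rule, which asks for 2-fold in the triple mutant too, sets members above many of these genes in both respects. Stability of the transcripts was not measured.

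Of the 79, 18 had a counting interval with its lower bound at 2-fold or more in both pairs. Just inside the 2-fold line stood DAR5, FH8, ACD6 and SCL3, with the smaller of their log2 ratios at 1.00 (DAR5 and FH8, in the triple mutant over rdr6-11), 1.00 (ACD6, in the double mutant over Col-0) and 1.01 (SCL3, in the triple mutant over rdr6-11). Just outside stood AT3G05270, RTFL8, AT3G24927 and ARF16, whose smaller log2 ratios were 1.00, 1.00, 1.00 and 0.99 when rounded.

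The 12 genes that stood highest on the smaller of their 2 ratios were RLP38, CAX7, PNP-A, RLP37, AT1G13360, JAL23, RLK1, RAP2.4, AT1G53110, AT2G44940, AT5G20885 and ERF15. Only RLP38 and CAX7 were 4-fold higher in both pairs. In all 12, and in 73 of the 79 members, the double mutant had a higher level than ein5-1, ski2-3 and Col-0, the last by the rule.

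**Figure D2:**
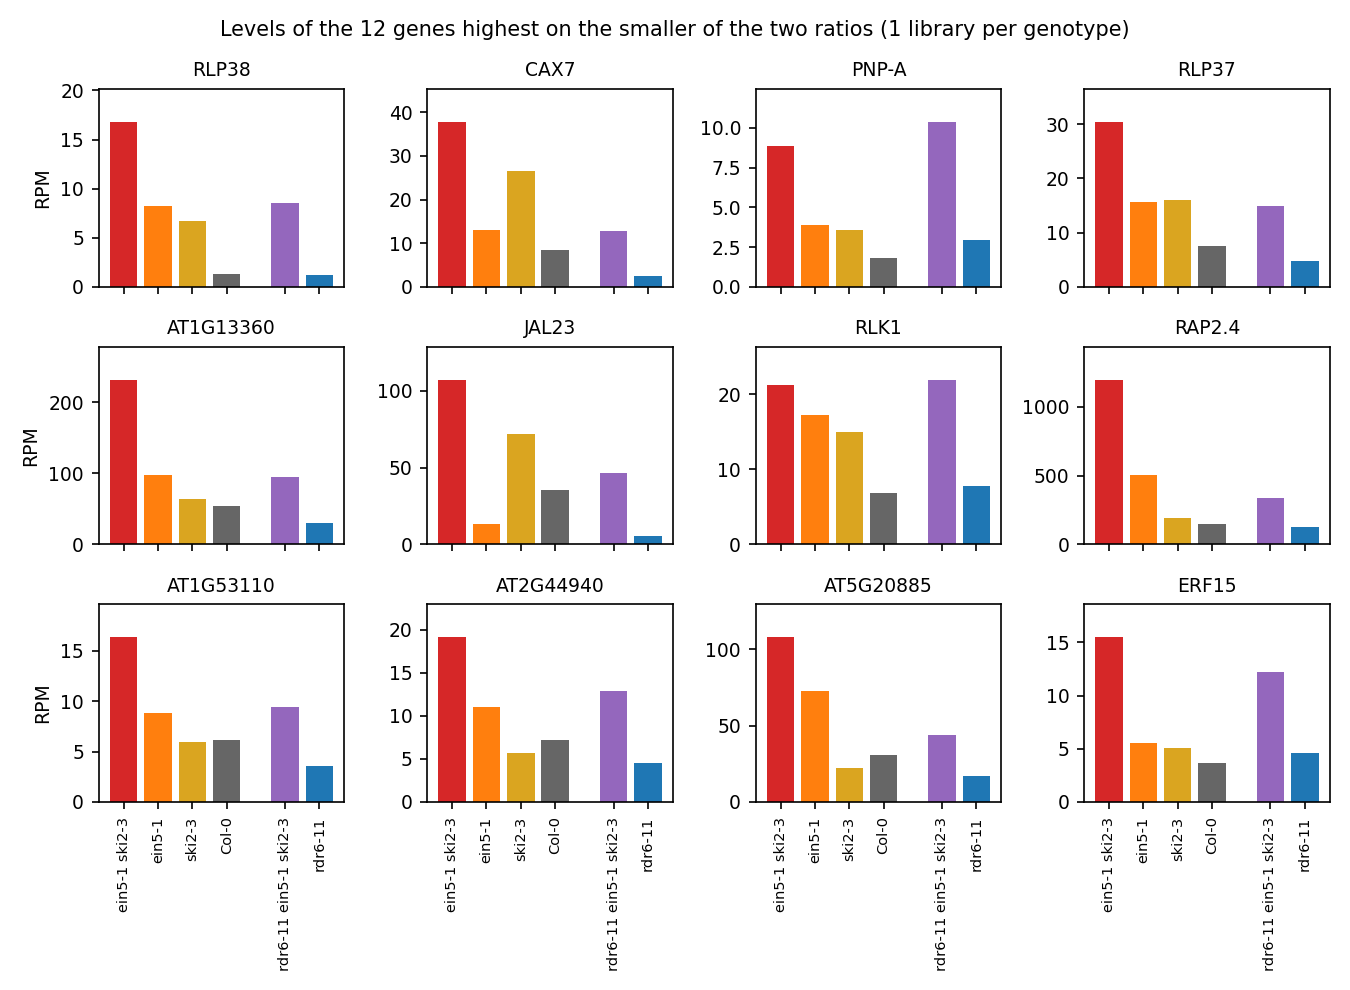
Bars give the level of the 12 genes in RPM, each from 1 library and with its own axis from 0; the double mutant, ein5-1, ski2-3 and Col-0 stand left of the triple mutant and rdr6-11. The left bar of each pair is the higher one by the rule, and JAL23 and CAX7 are higher in ski2-3 than in ein5-1 while RAP2.4 and AT5G20885 are the other way round.

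Receptor-like proteins, which carry leucine-rich repeats outside the cell and lack a kinase, gave 7 members: RLP23, RLP34, RLP37, RLP38, RLP41, RLP49 and RLP50. RLP23 is the receptor for a peptide of NLP toxins of microbes, and the RLP49 locus is annotated as a transcribed pseudogene. The annotation holds 54 such genes, of which 23 were measured in both pairs. In the double mutant over Col-0 10 of the 23 were at least 2-fold higher and 0 lower, and in the triple mutant over rdr6-11 8 were higher and 0 lower. Over all 13599 genes measured in both pairs, 1144 were higher and 755 lower in the first comparison, and 166 and 29 in the second. The 7 members are among the higher genes by the rule, and members likewise enter the family counts below. The family's medians were 0.89 and 0.55 in log2, against 0.17 and 0.09 over all measured genes.

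RLP38 had 16.8 RPM in the double mutant, 8.26 in ein5-1, 6.68 in ski2-3 and 1.36 in Col-0, and it had 8.54 in the triple mutant against 1.24 in rdr6-11. Its log2 ratio was 3.57 (2.80 to 4.60) in the double mutant over Col-0 and 2.75 (2.03 to 3.63) in the triple mutant over rdr6-11; each decay mutation alone had already given several times the level of Col-0. RLP37 stood at 30.4 RPM in the double mutant, 15.6 in ein5-1, 16.0 in ski2-3 and 7.46 in Col-0, and at 14.8 in the triple mutant against 4.80 in rdr6-11. The pattern over the libraries was thus alike for the neighbours. RLP23 stood at 26.0 RPM in the double mutant, 7.13 in ein5-1, 6.04 in ski2-3 and 2.83 in Col-0. Its level was 35.2 in the triple mutant and 14.9 in rdr6-11, which was itself above Col-0 (log2 ratio 2.37), so that the double mutant did not stand above the triple mutant. RLP34 had 71.4, 31.5 and 34.2 RPM in the double mutant, ein5-1 and ski2-3 against 15.2 in Col-0, and 34.2 in the triple mutant against 16.0 in rdr6-11. RLP42 missed by little, with log2 ratios of 0.93 and 1.04, while RLP40 had -0.53 and 0.28.

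**Figure D3:**
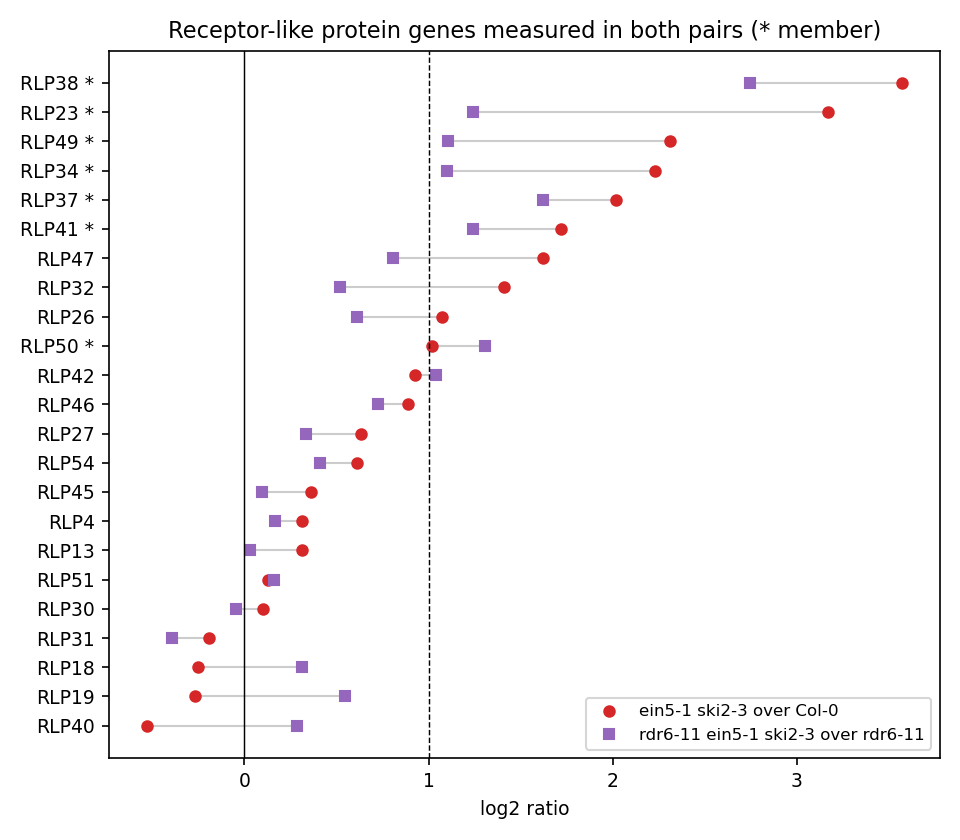
The 23 receptor-like protein genes measured in both pairs are ordered by their log2 ratio in the double mutant over Col-0 (circles), with the triple mutant over rdr6-11 as squares, 1 library per genotype, and a dashed line at 2-fold. The ratios run from -0.53 to 3.57 in the first pair and from -0.40 to 2.75 in the second, and the 7 members carry an asterisk.

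Among the receptor kinases, CRK6 had the highest ratio of any member in the double mutant over Col-0, 5.08 (3.97 to 6.84), from 338 reads against 5. It stood at 20.9 RPM in the double mutant, 2.96 in ein5-1, 2.47 in ski2-3 and 0.565 in Col-0, and at 10.11 in the triple mutant against 4.34 in rdr6-11. CRK5, beside it, stood at 13.2, 4.61 and 5.49 RPM in the double mutant, ein5-1 and ski2-3 against 2.04 in Col-0, and at 10.4 in the triple mutant against 4.18 in rdr6-11. Of 16 measured genes of this kinase family, 4 were 2-fold higher in the double mutant over Col-0 with 0 lower, and 2 were higher in the triple mutant over rdr6-11, both of them members, with 1 lower (CRK30, -1.17). Among all 13599 genes measured in both pairs, 1144 and 166 were higher and 755 and 29 lower. The family's medians were 0.27 and 0.24. RLK1 had 21.2 RPM in the double mutant, 17.2 in ein5-1, 15.0 in ski2-3 and 6.90 in Col-0, and 21.9 in the triple mutant against 7.75 in rdr6-11. WAK1, a kinase bound to pectin of the cell wall, was among the 8 members of highest level, with 66.2 RPKM in the double mutant against 28.8 in Col-0 and 25.2 in the triple mutant against 11.3 in rdr6-11.

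Members with known roles in immunity included DMR6, an oxygenase that inactivates salicylic acid, ACD6, a membrane protein that promotes cell death, DAR5, the TIR-type resistance gene AT5G46260, a chitinase (AT4G01700) and the apoplastic protease AED1 (AT5G10760). DMR6 stood at 31.2 RPM in the double mutant, 20.8 in ein5-1, 20.1 in ski2-3 and 12.0 in Col-0, and at 49.8 in the triple mutant against 19.98 in rdr6-11. The chitinase had 38.8, 37.8 and 39.0 RPM in the double mutant, ein5-1 and ski2-3 against 17.6 in Col-0, so that each mutation alone gave the level of the double mutant. AED1 had 105 RPM in the double mutant against 7.24 in Col-0 (log2 ratio 3.85, 3.50 to 4.24), and 32.6 in the triple mutant against 15.4 in rdr6-11. PNP-A, a small secreted peptide with a natriuretic-like domain, stood at 8.86, 3.91 and 3.57 RPM in the double mutant, ein5-1 and ski2-3 against 1.81 in Col-0, and at 10.4 in the triple mutant against 2.94 in rdr6-11. PR1 and PR2, markers of salicylic acid response, passed in both pairs but are among the genes the rule leaves out, and the salicylic acid and defence list does not hold them. Of that list's 8 measured genes 2 were 2-fold higher and 1 lower in the double mutant over Col-0, and 1 was higher and 0 lower in the triple mutant over rdr6-11. None was a member. Among all 13599 genes measured in both pairs, 1144 and 166 were higher and 755 and 29 lower.

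Genes for RING finger proteins, most of them ubiquitin ligases, gave 6 members: AT5G20885, BRG2, BOI (AT4G19700), RHA2B, ATL8 and AT5G41400. BOI and BRG2 belong to a family of gibberellin and pathogen response regulators, and RHA2B acts in abscisic acid signalling. AT5G20885 had 108 RPM in the double mutant, 72.7 in ein5-1, 22.5 in ski2-3 and 30.9 in Col-0, and 43.9 in the triple mutant against 16.7 in rdr6-11. BRG2 had 111 RPM in the double mutant, 44.1 in ein5-1, 22.1 in ski2-3 and 12.6 in Col-0, but only 7.49 in the triple mutant against 2.94 in rdr6-11. RING domains are common: 6 of 264 measured RING genes were members (2.27%, against 0.581% of all measured genes), and the medians of the 264 in the 2 pairs were 0.47 and 0.19.

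Transcription factors and zinc finger proteins gave 11 members. RAP2.4, an AP2/ERF factor of light, ethylene and stress responses that is also known as WIND1 for its part in wound-induced dedifferentiation, was the member of highest level, with 294 RPKM in the double mutant against 32.5 in Col-0 and 83.5 in the triple mutant against 29.2 in rdr6-11. In RPM it stood at 1198 in the double mutant, 506 in ein5-1, 194 in ski2-3 and 146 in Col-0, and at 334 in the triple mutant against 126 in rdr6-11. The other AP2/ERF members were ERF15 and AT2G44940. ERF15 had 15.5 RPM in the double mutant, 5.56 in ein5-1, 5.03 in ski2-3 and 3.62 in Col-0, and 12.2 in the triple mutant against 4.65 in rdr6-11. AT2G44940 had 19.1 RPM in the double mutant, 11.0 in ein5-1, 5.67 in ski2-3 and 7.24 in Col-0, and 12.9 in the triple mutant against 4.57 in rdr6-11. Of 48 measured genes with this domain 12 were 2-fold higher in the double mutant over Col-0, 4 lower, and 3 were higher and 4 lower in the triple mutant over rdr6-11. The 3 are the members. Among all 13599 genes measured in both pairs, 1144 and 166 were higher and 755 and 29 lower.

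Both GOLDEN2-like factors, GLK1 (GPRI1) and GLK2, which switch on nuclear genes for chloroplast proteins, were members. GLK1 stood at 416, 119 and 123 RPM in the double mutant, ein5-1 and ski2-3 against 99.95 in Col-0, and at 195 in the triple mutant against 80.9 in rdr6-11. GLK2 stood at 111, 75.3 and 30.0 RPM in the double mutant, ein5-1 and ski2-3 against 28.2 in Col-0, and at 139 in the triple mutant against 64.6 in rdr6-11. The paralogs thus differed in the single mutants: GLK2 was well above Col-0 in ein5-1 and near it in ski2-3, whereas GLK1 was near Col-0 in both. The remaining factors were NAC041, the GRAS proteins SCL3 and AT2G37650, ZFP8, OZF2 and the Dof protein AT1G28310.

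In auxin and light signalling the members were the SAUR genes AT2G46690 (SAUR32) and AT3G60690, BIG, a very large protein needed for auxin transport, and AT1G18810, annotated as similar to a phytochrome kinase substrate. Of 12 measured SAUR genes, 3 were 2-fold higher and 2 lower in the double mutant over Col-0, with a median log2 ratio of -0.19. In the triple mutant over rdr6-11 3 were higher and 0 lower, with a median of 0.70. Among all 13599 genes measured in both pairs, 1144 and 166 were higher and 755 and 29 lower. BIG had the most reads of any member, with 1541 RPM in the double mutant, 608 in ein5-1, 689 in ski2-3 and 615 in Col-0, and 1099 in the triple mutant against 511 in rdr6-11. Neither mutation alone moved it from Col-0 by as much as 2-fold. Channels and transporters gave 8 members, among them CAX7, a cation and calcium exchanger, the glutamate receptors GLR1.4 and GLR2.7, the cyclic nucleotide-gated channel CNGC3, the urea transporter DUR3 and WR3, the NAR2-type partner of nitrate transporters. CAX7 stood at 37.8 RPM in the double mutant, 13.0 in ein5-1, 26.5 in ski2-3 and 8.48 in Col-0, and at 12.9 in the triple mutant against 2.48 in rdr6-11.

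Of the enzymes, PYD4, an aminotransferase named for pyrimidine catabolism, stood at 133 RPM in the double mutant, 4.26 in ein5-1, 8.42 in ski2-3 and 4.41 in Col-0, and at 7.62 in the triple mutant against 3.56 in rdr6-11. It kept the smallest share of its log2 difference in the background without RDR6, 22.2%.

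Among the 15 members of other or unknown function, LSU1, a small protein of the sulfur starvation response, had 61.7 RPM in the double mutant, 0.956 in ein5-1, 4.76 in ski2-3 and 6.11 in Col-0, and 12.2 in the triple mutant against 6.04 in rdr6-11. In ein5-1 it was thus below Col-0, with 11 reads. AT1G13360 stood at 232 RPM in the double mutant, 97.6 in ein5-1, 64.6 in ski2-3 and 53.8 in Col-0, and at 94.5 in the triple mutant against 30.7 in rdr6-11. AT2G44670 stood at 148 RPM in the double mutant, 73.2 in ein5-1, 36.2 in ski2-3 and 39.9 in Col-0, and at 70.0 in the triple mutant against 31.0 in rdr6-11. Both were near Col-0 in ski2-3 and between Col-0 and the double mutant in ein5-1.

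Both members of the heat response were cochaperones, ROF2 (AT5G48570), an FKBP-type isomerase, and Fes1A, a nucleotide exchange factor of HSP70. ROF2 stood at 82.3 RPM in the double mutant, 5.82 in ein5-1, 9.24 in ski2-3 and 6.56 in Col-0, and at 19.5 in the triple mutant against 8.83 in rdr6-11. Of the 79, it alone stood on any of 20 lists of response pathways and regulators, but the lists hold none of the 9 genes that the rule leaves out, and HSP70-4, HSP101 and HSP90.1 passed in both pairs. In the list of other chaperones and heat response 5 of 11 measured genes were 2-fold higher in the double mutant over Col-0 and 1 in the triple mutant over rdr6-11. For all genes measured in both pairs the counts were 1144 and 166 of 13599. For the anthocyanin and flavonoid list the counts were 12 and 0 of 14, without UF3GT, which passed in both pairs and is left out, and for the miRNA target genes 10 and 0 of 38.

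The comparison of ein5-1 with ski2-3 uses neither library pair of the rule. Of 79 members 58 had 100 reads in the higher of these libraries. At least 2-fold higher in ein5-1 than in ski2-3 were 9 of the 58 (15.5%), where 0.808% of all 13123 measured genes were, and at least 2-fold lower were 5 (8.62%), where 2.87% were. The median log2 ratio of the 58 was 0.30, against 0.13 for all genes, and under other scalings and read minimums the members' median ran from 0.12 to 0.47. Over all 79 members, whatever their reads in these 2 libraries, the median was 0.143, close to the 0.136 of the 13599 genes measured in both pairs. The SD of the 58 was 0.82, against 0.45 for all genes. No replicate stands behind either library, so these are counts of genes past a size, not a test. With median-of-ratios size factors the 9 became 4, and with totals over all genes they became 14 and the 5 became 3.

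Some groups of members had mostly the same direction and others were mixed, in groups drawn up after the values had been seen. All 6 RING finger members and 8 of 10 measured transcription and zinc finger factors had a ratio above the median of all genes, while all 5 measured receptor-like proteins, both lectins and 5 of 6 measured channels and transporters had one below it. Of the other groups, kinases had 1 member above that median and 1 below, immune members 4 and 2, and auxin and light members 3 and 1. Enzymes had 2 and 5, heat response members 0 and 1, and members of other or unknown function 8 and 1. AT5G20885 had the highest ratio of ein5-1 over ski2-3, 1.69 (1.48 to 1.90), from 72.7 RPM in ein5-1 and 22.5 in ski2-3. RAP2.4 followed with 1.38 (1.31 to 1.45), GLK2 with 1.33 (1.14 to 1.51), ATL8 with 1.17 (0.70 to 1.68) and AT3G02555, an uncharacterised gene, came next with 14.8 RPM in ein5-1 and 6.86 in ski2-3. Over whole families measured in both pairs, the median was 0.15 for the RING domain, 0.04 for AP2/ERF factors and -0.05 for receptor-like proteins, near the 0.14 of all such genes, but it was -0.91 for the 12 jacalin lectins.

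At the other end JAL23, a jacalin-related lectin, had 13.3 RPM in ein5-1 and 72.1 in ski2-3 (log2 ratio -2.43, -2.70 to -2.19). TBL26, of a family of cell wall acetyltransferases, had 4.69 in ein5-1 and 22.0 in ski2-3 (-2.22, -2.68 to -1.79). CORI3, a cystine lyase induced by coronatine and jasmonate, had 85.6 in ein5-1 and 207 in ski2-3 (-1.27, -1.38 to -1.17). The lectin AT1G52000 and CAX7 completed the 5 lowest, at -1.08 and -1.03. The jasmonate response list was also lower in ein5-1 than in ski2-3, with a median log2 ratio of -1.56 in ein5-1 over ski2-3 for its 8 genes measured in both pairs, and its part in the members' ratios was not tested.

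**Figure D4:**
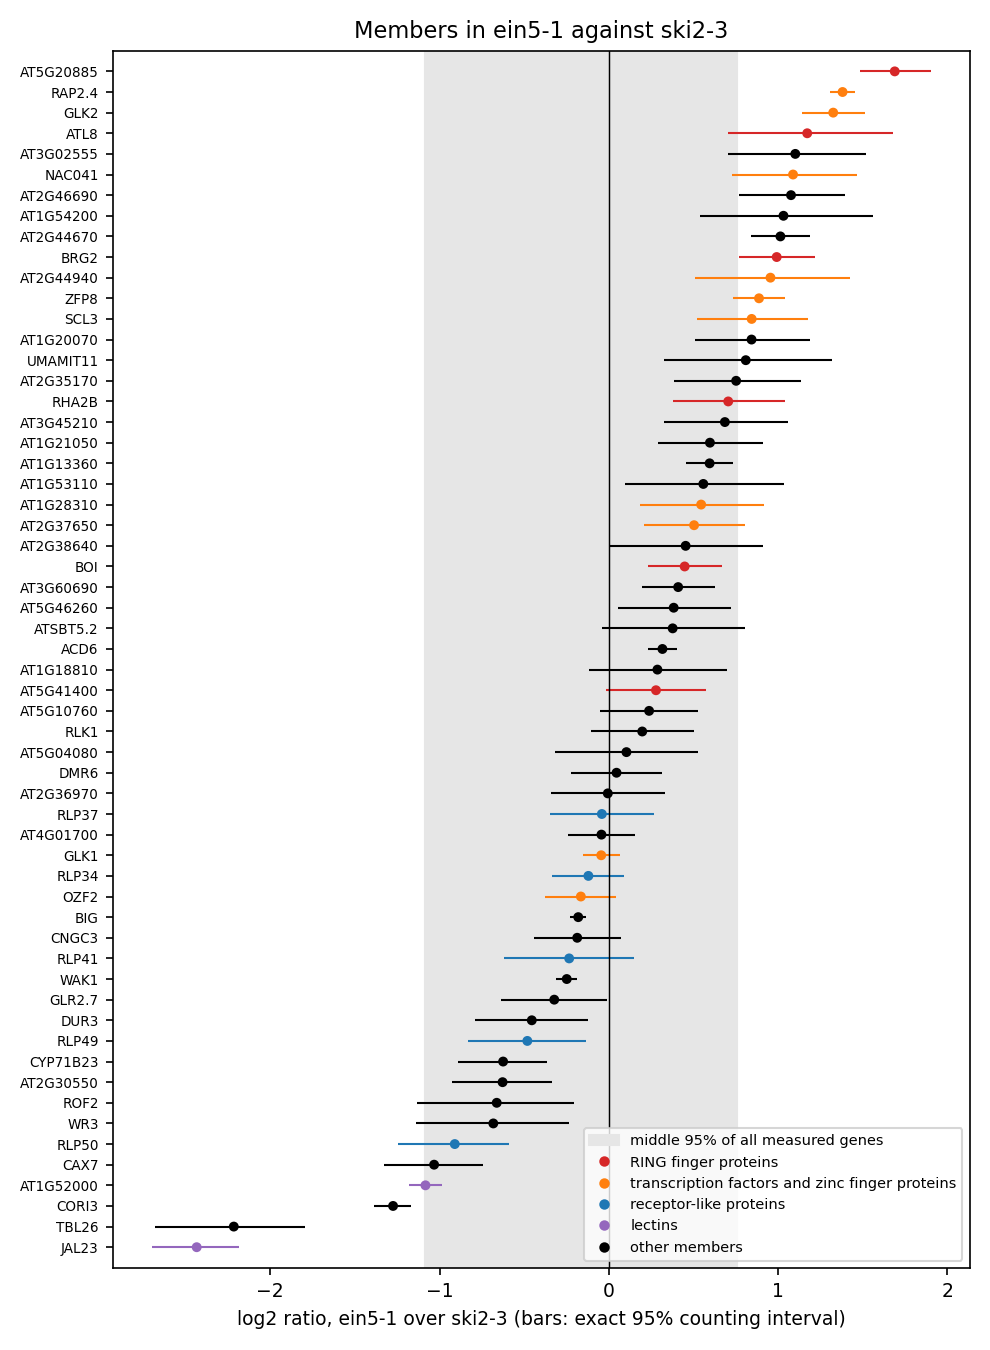
Points are the log2 ratios of ein5-1 over ski2-3 for the 58 members with at least 100 reads in the higher of these libraries, bars are exact 95% counting intervals, and the grey band spans the middle 95% of all 13123 measured genes (-1.08 to 0.76). Above the band lie 15 members and below it 4, with RING finger proteins (red) and transcription factors (orange) mostly at the top and lectins (purple) at the bottom.

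Each decay mutation alone was also set against Col-0, a library the rule used, so these counts only describe the members. In ein5-1 over Col-0 23 of 56 measured members were at least 2-fold higher (1.35% of all measured genes) and 3 lower (2.19%). In ski2-3 over Col-0 12 of 46 were higher (1.42%) and 0 lower (1.89%). Of the 79, 5 passed in both single mutants, 18 only in ein5-1, 7 only in ski2-3 and 49 in neither, where a member under 100 reads counts as not passed. The 49 thus mix members with few reads and members that differed little. This split was not counted over all genes, so nothing particular to the members can be read from it. The 5 were RLP34, RLP37, RLK1, the chitinase AT4G01700 and AED1. In 73 members the double mutant had the highest level of itself, ein5-1, ski2-3 and Col-0. The rule sets it above Col-0, and this was not counted over all genes. Among the rest, ZFP8 was higher in ein5-1 (90.2 RPM) than in the double mutant (75.4). All 4 of the 2-fold calls among RING finger members and all 5 among transcription and zinc finger factors were in ein5-1, with 0 in ski2-3.

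Between rdr6-11 and Col-0, both reference libraries of the rule, 4 of 39 measured members were at least 2-fold higher (4.1% of all genes were) and 12 lower (6.75%). The double mutant was at least 2-fold higher than the triple mutant for 36 of 79 members (16% of all genes) and at least 2-fold lower for 0 (8.42%). Both are the higher libraries of the rule's pairs, so these counts too only describe the members. With the trimmed mean of M-values and with median-of-ratios size factors the 36 became 24. PYD4 (4.12), BRG2 (3.88), AT2G36970, a glycosyltransferase gene (3.01), AT1G52000 (2.97) and RHA2B (2.58) had the highest log2 ratios of the double over the triple mutant. At the low end stood AT1G18810 (-0.98), DMR6 (-0.68), RLP23 (-0.44), GLK2 (-0.33) and CYP71B23 (-0.27), which had higher levels in the triple mutant than in the double mutant.

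Libraries with and without rdr6-11 differed in clock genes as well. CCA1, a morning gene of the circadian clock, had 639 reads in rdr6-11 and 5 in Col-0, and TOC1, an evening gene, had 446 in rdr6-11 and 1859 in Col-0. Within the pairs TOC1 differed little, with log2 ratios of 0.11 in the double mutant over Col-0 and -0.06 in the triple mutant over rdr6-11, as did ELF3, at 0.07 and -0.13. Other clock genes differed more. Over the 4 evening genes measured in both pairs the ratios ran from -0.49 to 0.11 and from -0.20 to 0.26. For the 2 measured morning genes they ran from -0.38 to 0.44 and from -0.13 to 0.55. The part of the clock in the comparisons across backgrounds was not tested.

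Members with a larger ratio in the triple mutant over rdr6-11 than in the double mutant over Col-0 included genes that were low in rdr6-11 itself. That library is the reference of the first ratio, and the part of its level in these ratios was not tested. CORI3 had 49.6 RPM in the triple mutant and 9.91 in rdr6-11, and 212 in the double mutant and 95.7 in Col-0, which made the log2 ratios 2.32 and 1.15. JAL23 had 46.5 RPM in the triple mutant and 5.42 in rdr6-11 against 107 in the double mutant and 35.6 in Col-0. AT1G52000 had 73.0 in the triple mutant and 21.5 in rdr6-11 against 572 in the double mutant and 244 in Col-0. In rdr6-11 over Col-0 the log2 ratios of CORI3, JAL23 and AT1G52000 were -3.27, -2.71 and -3.50. Not every such member was low in rdr6-11. AT1G18810 had 1.91 in the triple mutant over rdr6-11 and 1.20 in the double mutant over Col-0. Its log2 ratio in rdr6-11 over Col-0 was 0.26, from 53 reads and 30. The jasmonate response list did not move as one: of its 8 measured genes 3 were 2-fold higher (VSP1, VSP2 and LOX2) and 1 lower (JAZ7) in the triple mutant over rdr6-11, with a median of -0.06. In the double mutant over Col-0 0 were higher and 5 lower, with a median of -1.51, where CORI3, JAL23 and AT1G52000 were higher. Among all 13599 genes measured in both pairs, 1144 were higher and 755 lower in that comparison. In the triple mutant over rdr6-11 166 were higher and 29 lower. The part of jasmonate response in CORI3, JAL23 and AT1G52000 was not tested.

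Gene structure was not used by the rule, and members had few introns. In 29 of 78 protein-coding members (37.2%, 95% Clopper-Pearson interval 26.5 to 48.9) the gene model had a single exon, against 1560 of 13337 measured protein-coding genes (11.7%). The interval takes genes as independent, while some members are paralogs or neighbours, so it may be too narrow. Members had a median of 2 exons and measured genes 5. Their transcripts were not short, with a median of 1748 bases against 1824 and a median coding length of 1215 against 1269 bases. Among measured genes with an RPKM in the double mutant within the middle 50% of the members, 12.4% had a single exon, close to the share among all measured genes. Genes 2-fold higher in only 1 of the pairs stood between, at 23.1% (double mutant over Col-0, 1021 genes) and 22.4% (triple mutant over rdr6-11, 76 genes).

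Families without introns made up part of this share. Of the receptor-like protein members 6 had a single exon, of the RING finger members 4, of the transcription and zinc finger factors 5 and of the auxin and light group 3. Without the receptor-like proteins the share was 31.9% of 72, and without these, the RING, AP2/ERF and SAUR genes it was 23.0% of 61. The families were taken out of the members only, and the share given for measured genes still includes them. Whether members outside these families exceed measured genes outside them was therefore not tested.

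**Figure D5:**
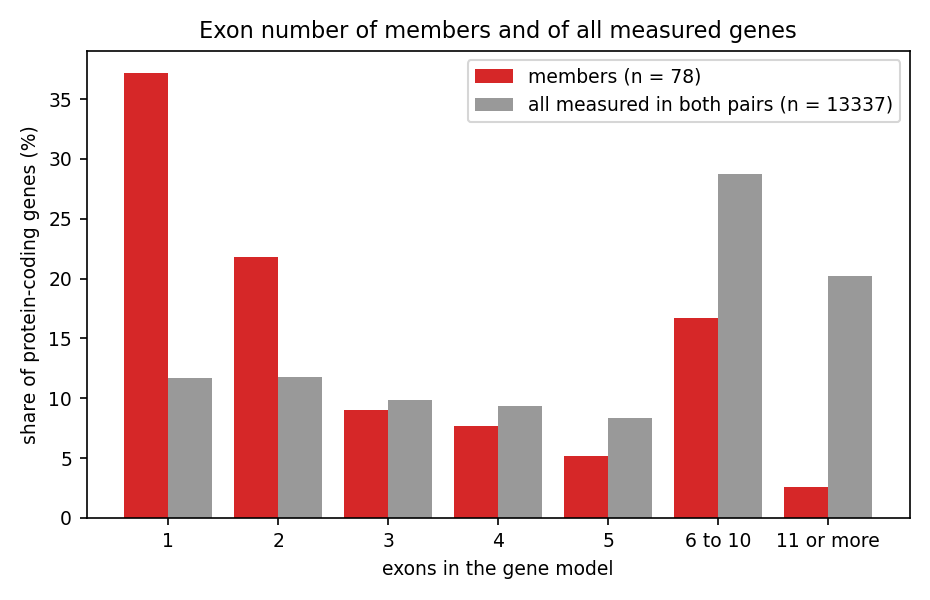
Bars give the share of protein-coding genes by the number of exons in the gene model, for the 78 members with such a model (red) and the 13337 genes measured in both pairs (grey). Members stand above the measured genes at 1 exon (37.2% against 11.7%) and 2 exons (21.8% against 11.8%) and below them in every class from 3 exons on.

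Some members share sequence with other genes, and the labels do not say how reads were divided among copies. Of the 50-base windows of the 79 transcripts, none occurred elsewhere in the genome for 58 members. Over 10% did for 6: CRK6 (26.3%), AT5G46260 (22.3%), RLP34 (18.9%), RLP49 (17.3%), RLP41 (14.4%) and CNGC3 (10.5%), whose values are less certain. Only exact copies were counted, and these shares do not give the size of any error, which was not measured. Neighbours also shared windows with each other, RLP49 with RLP50 and RLP37 with RLP38; for RLP37 and RLP38 repeated windows were 2.68% and 2.81% of the transcript.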

How the data were processed

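The authors deposited read counts per gene for 6 libraries, RPKM, and log2 ratios between libraries, per the file headers. BWA and the TAIR9 build are named in the submitters' processing notes; how reads reached genes or strands is not given in the sources used here. No use was made of the authors' deposited p-values, nor of their false discovery rates, a score whose method is unstated. An empty count was read as 0.

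From the counts, levels were computed as RPM over nuclear genes without the 4 ribosomal RNA genes, and ratios with 0.5 reads added. Called means at least 2-fold with 100 reads in the higher library, which is a size and not a test. Counting intervals are exact (Clopper-Pearson) at 95%, and PCR duplicates could not be told from molecules. The rule and intervals were tried on simulated counts with counting error only, for well-read genes raised beyond the 2-fold line. That trial does not cover members with few reads, members near the line, or the even counts of the pair without RDR6. Exons, upstream sequences and names came from RefSeq TAIR10.1, which held all 79 members. Members, gene lists and groups were chosen with earlier results of these data known. Genes were named by rank on the smaller ratio (12), on RPKM in the double mutant (8), on the double over the triple mutant and on ein5-1 over ski2-3 (5 at each end), and beside the 2-fold line (4 on each side), with members of the gene lists; other genes named were chosen after their values were seen. Python 3.11.15 was used with numpy 2.4.6, pandas 2.3.3, scipy 1.17.1.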

Additional observations from a re-analysis of the deposited data

How the results depend on the processing

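How many genes the rule took depended on its settings. In place of 79 it took 48 with median-of-ratios size factors, 125 with totals over all genes including organelles, 121 with the authors' RPKM, 132 at a minimum of 50 reads, 17 at 500 and 869 with none, 42 with the counts of rdr6-11 and the triple mutant halved, 2 at 4-fold, 481 at 1.5-fold and 18 when the lower counting bound had to reach 2-fold. The trimmed mean of M-values gave 55 and a pseudocount of 5 gave 63. The trimmed mean moved the median of all genes in the double mutant over Col-0 from 0.17 to -0.03.

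With the 79 held fixed, members 2-fold higher in ein5-1 than in ski2-3 were 9, 4 with median-of-ratios, 14 with totals over all genes and 4 at 500 reads, and those 2-fold lower were 5 and became 3 with totals over all genes, with RPKM and at 500 reads. Their median ratio of 0.30 was 0.12 at 50 reads, 0.14 with no minimum, 0.17 with median-of-ratios and 0.47 with totals over all genes. The median of all genes measured in both pairs moved too, from 0.136 to 0.002 with median-of-ratios and to 0.306 with totals over all genes. AT1G18810 made 1 member 2-fold lower in the double than in the triple mutant with the trimmed mean, median-of-ratios, totals over all genes and RPKM. Higher in rdr6-11 than in Col-0 were 7 at 50 reads, 7 with no minimum, 1 at 500 and 2 with halved counts. At 500 reads 6 were higher in ein5-1 than in Col-0, 2 higher in ski2-3 than in Col-0 and 4 lower in rdr6-11 than in Col-0, the median log2 ratio of the double over the triple mutant was 1.29 and the median share kept 83.4%, since fewer genes are measured there. Other recomputed counts were within 1.5 times the reported one. No paired analysis was possible because each genotype has 1 library. Depth limits most members, since 50 of 79 had under 100 reads in Col-0 and 48 in rdr6-11.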

Other observations

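The ratio of the double mutant over Col-0 exceeded the sum of the log2 ratios of ein5-1 and ski2-3 over Col-0 by a median of 0.78 for members and of 0.26 for all 13599 genes measured in both pairs. For 31 of 79 members (39.2%) the excess was 2-fold or more, against 11.5% of all 13599 and 37.8% of the 1144 genes 2-fold higher in the double mutant. For 6 members (7.59%) the double mutant fell short of the sum by as much, against 4.26% of all and 1.75% of the 1144. These ratios share the double mutant and Col-0 libraries with the choice of members.

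Chromosome 2 held 21 of the members, which was 1.00% of its measured genes, against 0.445% to 0.548% on the other 4 chromosomes. Other motifs were searched upstream of members on both strands. TATAAA stood upstream of 48.7% of members against 45.2% of measured genes, and more than once upstream of 25.6% against 16.9%. At least 1 match was found for ACGTG in 23.1% against 22.9%, CACGTG, which contains ACGTG, in 6.41% against 7.39%, and TGACG, which overlaps TTGAC only in part, in 16.7% against 19.0%. CCGAC, the core bound by dehydration response factors, stood upstream of 5 members (6.41%), against 13.2% of measured genes. GCCGCC stood upstream of 1 member (1.28%, against 1.97% of measured genes). AAATATCT stood upstream of 3 (3.85% against 4.87%) and AAACCCTA of 3 (3.85% against 3.51%), so these shares were near those of measured genes.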
